A study of Homo sapiens with 6 samples.

Results

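Syndecans and glypicans are the main families of heparan sulfate proteoglycans held at the cell surface. The genes described here are the 4 syndecans (SDC1, SDC2, SDC3 and SDC4) and the 6 glypicans (GPC1 to GPC6), found by gene symbol. All 10 were present among the 23754 features of the count table, and 8 had enough reads to be tested among 13991 features. The libraries came from IMR-90, a line of human fetal lung fibroblasts, transduced with a lentiviral Tet-pLKO-puro vector that expresses the sh-2 hairpin against ZNF469 when doxycycline is present, and selected with puromycin. Cells given 2 µg/mL doxycycline for 4 days (DOX+, labelled Sh-ZNF469, 3 libraries) were compared with the same line without doxycycline (DOX-, labelled Control, 3 libraries). The control libraries carry the genotype label wild-type, whereas the extraction protocol and the methods of the study describe the uninduced hairpin line. Both groups therefore share the vector and differ in doxycycline and hairpin together, whose effects cannot be told apart here. The submitters call the 3 libraries of a group technical replicates, so the p-values measure the spread between libraries, which may hold no variation between cultures.

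A syndecan spans the membrane, with a short conserved cytoplasmic tail that binds PDZ-domain proteins such as syntenin and with heparan sulfate, and in some members chondroitin sulfate, on its outer part. A glypican is a globular, disulfide-bonded core tied to the outer leaflet by a glycosylphosphatidylinositol (GPI) anchor. Through their heparan sulfate chains both families hold growth factors, morphogens and matrix proteins such as fibronectin near their receptors, and in fibroblasts syndecan-4 takes part in focal adhesion assembly alongside integrins. Chain synthesis starts when a xylosyltransferase, XYLT1 or XYLT2, adds xylose to a serine that is followed by glycine in the core protein. The comparison asked whether the RNA of these core proteins, and of the enzymes that build and trim their chains, differed after induction of the ZNF469 hairpin.

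Candidate attachment sites can be read from the genes themselves. In the canonical coding sequences of GENCODE 44, serine-glycine codon pairs (TCN, AGT or AGC, followed by GGN) numbered 5 in SDC1, 3 in SDC2, 8 in SDC3, 4 in SDC4, 6 in GPC1, 8 in GPC2, 2 in GPC3, 3 in GPC4, 5 in GPC5 and 4 in GPC6, against a median of 2 over 19755 coding sequences. The first pair of the syndecans lay at codon 37 in SDC1, 41 in SDC2, 64 in SDC3 and 39 in SDC4. GPC6 had all its pairs between codons 493 and 499 of 555, and GPC4 had its own between codons 494 and 500 of 556, while GPC1 had 3 between codons 486 and 490 of 558 and others earlier in the chain. At least 3 pairs within 20 codons occurred in 3.28% of all coding sequences and in SDC1, SDC2, SDC3, GPC1, GPC4, GPC5 and GPC6. At least 4 occurred in 0.542% of all coding sequences and in SDC3 and GPC6. A codon pair is a description of the sequence and does not show that a chain is attached there. As examples of candidate sites for XYLT1 and XYLT2, the densest 60 coding bases within 1 exon are printed for 3 glypicans and 3 syndecans. The other members also hold pairs, and their windows are not printed. Positions are on GRCh38, and bases are read 5′ to 3′ on the coding strand, with serine-glycine codons in capitals.
GPC6, chr13:94403017-94403076, + strand, exon 9: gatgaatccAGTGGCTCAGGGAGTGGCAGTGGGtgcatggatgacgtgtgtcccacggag
GPC4, chrX:133303008-133303067, - strand, exon 9: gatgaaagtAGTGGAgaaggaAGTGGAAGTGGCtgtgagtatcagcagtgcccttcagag
GPC1, chr2:240466060-240466119, + strand, exon 9: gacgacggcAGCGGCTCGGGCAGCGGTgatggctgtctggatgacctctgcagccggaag
SDC1, chr2:20205344-20205403, - strand, exon 2: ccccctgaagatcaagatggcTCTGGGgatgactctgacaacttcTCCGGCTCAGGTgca
SDC3, chr1:30878630-30878689, - strand, exon 2: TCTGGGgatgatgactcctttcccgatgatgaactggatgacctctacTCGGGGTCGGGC
SDC4, chr20:45335783-45335842, - strand, exon 2: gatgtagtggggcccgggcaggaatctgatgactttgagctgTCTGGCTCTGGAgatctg
The GPC6 window holds 4 pairs in an unbroken run, the GPC1 window an unbroken run of 3, and the GPC4 window 3 pairs of which the first stands apart. The SDC4 window holds 2 adjacent pairs. The SDC3 window (codons 64 to 83) holds 3 pairs and not the 4 counted within 20 codons, at codons 80, 82, 84 and 91. No 60 bases within 1 exon held all 4 of those.

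**Figure D1:**
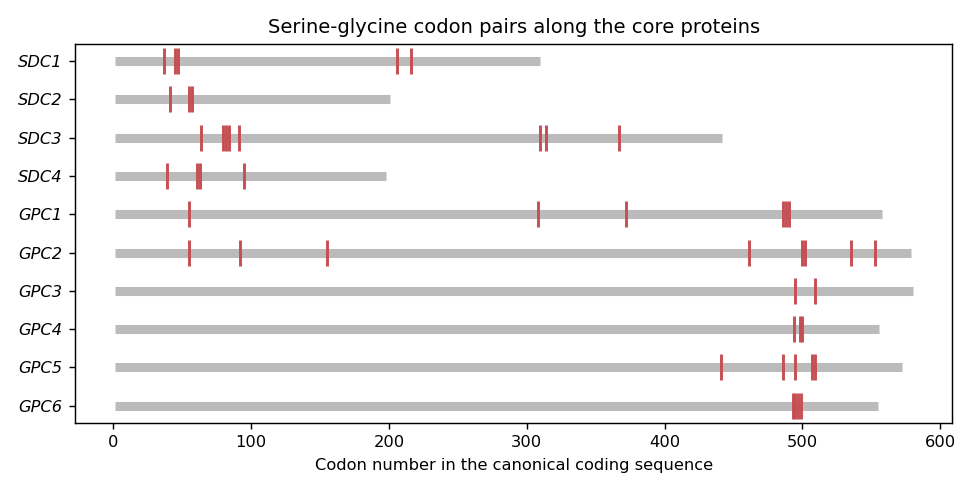
Each grey bar is the canonical coding sequence of 1 gene, drawn to scale along its codon number, and each red mark is a serine-glycine codon pair. The first pairs of the 4 syndecans lie at codons 37 to 64, and all 4 pairs of GPC6 fall between codons 493 and 499.

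Library totals ran from 34057675 to 36120260 counts, so counting error is small for the abundant members and dominates for GPC3 and GPC5. ZNF469, the targeted gene, was at 118, 112 and 126 CPM (counts scaled to library size by the TMM method) in DOX- replicates 1, 2 and 3 and at 80.4, 80.4 and 79.6 CPM in the DOX+ replicates. Every DOX+ value was below every DOX- value, and the fitted level fell by 0.57 on the log2 scale (standard error 0.0477, adjusted p = 3.31e-05 by edgeR's quasi-likelihood test). The first principal component (23.9% of the variance) set DOX+ replicate 2 (score 32.8) apart from the other 5 libraries (-12.6 to 0.524). GPC6 and SDC2 are therefore also given without DOX+ replicate 2. On the same component DOX+ replicates 1 and 3 (0.524 and -1.52) also lay above all DOX- libraries (-12.6 to -7.4). All 10 fibroblast markers were above 1 CPM. Their summed level was 56200 to 57800 CPM in DOX- libraries and 47500 to 49100 CPM in DOX+ libraries. The markers did not move together. Mean CPM went from 15500 to 9610 for COL1A1, 10100 to 7110 for COL1A2, 784 to 556 for COL3A1, 1640 to 1440 for DCN and 104 to 89.9 for LUM. It went from 19700 to 20500 for FN1 and 853 to 875 for THY1. VIM (8010 and 7900), PDGFRB (288 and 285) and PDGFRA (116 and 116) differed little. Of 10 epithelial markers 5 had 0 counts throughout (KRT5, SFTPC, SFTPB, SCGB1A1 and FOXJ1), as did 3 of 7 endothelial markers (PECAM1, CDH5 and EMCN) and 3 of 7 immune markers (CD3E, LYZ and MARCO). The epithelial sum was 108 to 118 CPM in DOX- and 112 to 133 CPM in DOX+ libraries, nearly all of it KRT18 and KRT8. The endothelial sum was 20.1 to 24.4 CPM in DOX- and 20.6 to 24.0 CPM in DOX+ libraries, nearly all of it TEK. The immune sum was 60.8 to 66.8 and 59.2 to 65.4 CPM, nearly all of it CD68. The sum of 7 smooth muscle and pericyte markers, 6 of them above 1 CPM, was 977 to 1050 and 975 to 1040 CPM. The part of these lists in the members' values was not tested, and in bulk libraries fewer cells of a type and less RNA per cell cannot be told apart.

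Levels of different genes were compared per length, in the FPKM (fragments scaled to transcript length and library size) that the authors deposited. GPC1, a glypican of many adult tissues, had the highest level, at 158, 151 and 163 FPKM in DOX- replicates 1, 2 and 3 and 159, 156 and 163 FPKM in DOX+ replicates 1, 2 and 3. That level lay above 97.4% of the features tested. The 4 syndecans followed, in the order SDC4 (69.5 ± 1.3 FPKM, SD, n = 3 DOX- libraries), SDC3 (43.0 ± 2.23 FPKM), SDC2 (26.3 ± 0.413 FPKM) and SDC1 (16.0 ± 1.3 FPKM). GPC6 came next at 5.65 ± 0.22 FPKM, near the middle of all features tested (49.0% were lower), followed by GPC2 at 1.62 ± 0.119 FPKM and GPC4 at 0.352 ± 0.0326 FPKM. Each of these genes had a DOX- range that did not overlap that of its neighbour in the order. GPC5 and GPC3 were at the bottom and could not be ordered. The deposited FPKM of these genes covered a range from 0 to 163, and the same order was found with CPM per kilobase of canonical transcript.

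**Figure D2:**
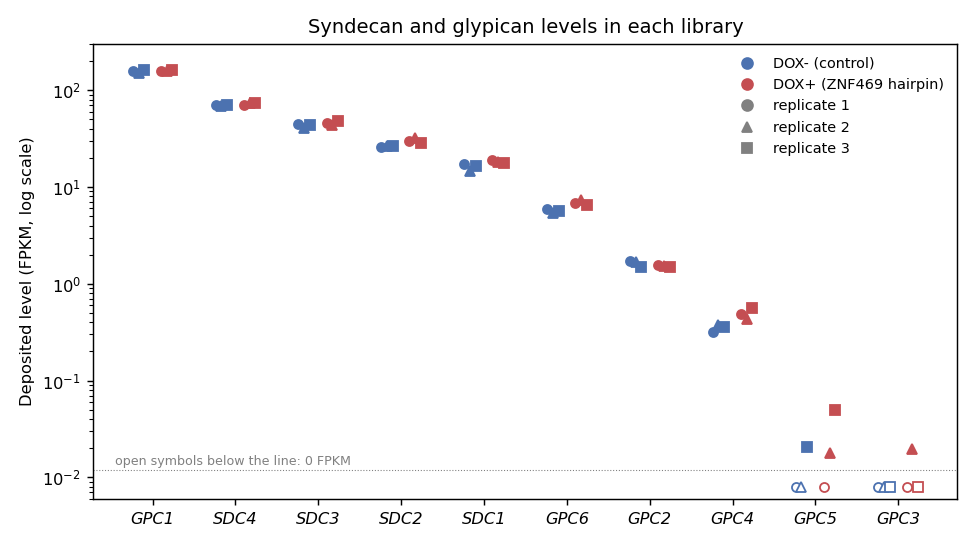
Deposited FPKM (vertical axis, log scale) of the 10 genes, ordered by their mean in the DOX- libraries, with 1 symbol for each library and its shape giving the replicate number. GPC1 sits near 160 FPKM in both groups, and open symbols at the bottom mark libraries in which GPC5 or GPC3 was listed at 0.

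GPC3, known for overgrowth syndromes and as a marker of liver cancer, had 0 counts in 5 libraries and 2 counts in DOX+ replicate 2. GPC5 had 3 counts in DOX- replicate 3, 2 counts in each of DOX+ replicates 2 and 3, and 0 elsewhere. A count of 0 allows a level of up to 0.0831 to 0.0881 CPM (3 counts, counting error only), so both genes were at or under what this depth can show and no fold change is given. Each lies beside a detected relative, GPC3 next to GPC4 on chromosome X (GPC4 at 133300103 to 133415489 and GPC3 at 133535745 to 133987100 of GRCh38) and GPC5 next to GPC6 on chromosome 13 (GPC5 at 91398621 to 92873682 and GPC6 at 93226807 to 94408020).

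The glypican RNA was almost entirely GPC1. Its share of the summed glypican FPKM was 95.4% ± 0.208 (SD, n = 3) in DOX- and 94.7% ± 0.351 (SD, n = 3) in DOX+ libraries, and every DOX+ share was below the lowest DOX- share of 95.2%. GPC6 held 3.54%, 3.44% and 3.29% of it in DOX- replicates 1, 2 and 3 and 4.02%, 4.44% and 3.77% in the DOX+ replicates. The syndecan RNA was more evenly divided, with SDC4 at 44.9% ± 0.651, SDC3 at 27.8% ± 0.709, SDC2 at 17.0% ± 0.666 and SDC1 at 10.4% ± 0.617 (SD, n = 3) of the summed syndecan FPKM in DOX- libraries. In DOX+ libraries SDC4 held 42.6% to 43.7%, below its DOX- range of 44.2% to 45.5%, while the ranges of SDC1, SDC2 and SDC3 overlapped between groups. The summed glypican FPKM divided by the summed syndecan FPKM was 1.06, 1.06 and 1.08 in DOX- and 1.02, 0.99 and 1.02 in DOX+ replicates 1, 2 and 3. These shares and ratios do not depend on how libraries are scaled, and they are given without a test. How often such shares and ratios separate over other gene families was not measured. A share also falls when other members of its family rise. The fitted log2 fold changes of GPC1 and SDC4 themselves were -0.02 and 0.02, so their lower shares are not separate changes of these 2 genes.

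RefSeq start sites (GRCh38.p14) were on hand for 8 of the 10 genes, with a pair of them for SDC1. In the 250 bases before the start, the GC box GGGCGG (either strand, overlaps counted) occurred 8 times for SDC4, 5 times for SDC3, 4 times for GPC1, 3 times for GPC2, 2 times for GPC4 and for GPC5, 1 time for either SDC1 start and 0 times for GPC6. Over the 35116 start sites in the RefSeq table, 42.6% had at least 1, 7.63% at least 4, 4.15% at least 5 and 0.584% at least 8. The GC content of the window was 84.0% for GPC1, 83.6% for SDC3, 76.0% for GPC4, 75.2% and 66.4% for the SDC1 starts, 73.6% for SDC4, 66.8% for GPC2, 62.4% for GPC5 and 37.6% for GPC6, against a median of 58.0%. It did not follow the order of the levels, since GPC4, at 0.352 FPKM, was above SDC4, at 69.5 FPKM. The letters TATAAA (either strand) were found 1 time for GPC6 and 1 time for GPC5 and in 10.7% of all windows. The genes with the 3 highest counts of the GC box were also those with the 3 highest FPKM levels, but GPC2 and GPC4, with levels far below those of SDC1 and GPC6, had more matches than either. A match is not a bound site, and which start site these cells use was not measured. The windows of GPC1, SDC4 and GPC6 are shown because they hold the highest GC content, the most GC boxes and none (GC boxes in capitals, 5′ to 3′ towards the start).
GPC1, chr2:240435413-240435662, + strand: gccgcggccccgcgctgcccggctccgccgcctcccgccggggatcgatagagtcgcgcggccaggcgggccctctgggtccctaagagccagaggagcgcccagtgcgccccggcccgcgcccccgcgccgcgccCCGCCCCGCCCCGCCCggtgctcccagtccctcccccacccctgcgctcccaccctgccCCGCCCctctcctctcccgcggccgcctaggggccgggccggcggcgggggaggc
SDC4, chr20:45348425-45348674, - strand: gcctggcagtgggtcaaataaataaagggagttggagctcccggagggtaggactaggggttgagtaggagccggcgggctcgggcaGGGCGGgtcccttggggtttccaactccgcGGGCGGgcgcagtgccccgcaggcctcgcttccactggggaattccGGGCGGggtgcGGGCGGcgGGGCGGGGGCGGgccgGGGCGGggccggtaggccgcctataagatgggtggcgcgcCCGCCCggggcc
GPC6, chr13:93226557-93226806, + strand: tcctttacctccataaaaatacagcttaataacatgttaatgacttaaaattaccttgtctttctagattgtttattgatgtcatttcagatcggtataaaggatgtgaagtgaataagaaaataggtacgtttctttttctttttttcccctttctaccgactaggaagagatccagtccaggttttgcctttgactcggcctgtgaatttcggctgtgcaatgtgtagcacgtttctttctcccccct

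Between DOX+ and DOX- libraries, 0 of the 8 members tested were called higher and 0 lower at an adjusted p under 0.05 (edgeR's quasi-likelihood test, Benjamini-Hochberg adjustment over all 13991 features). Over all features, 0.4% were called higher and 0.715% lower. At an unadjusted p under 0.05 in the same test, 4 of the 8 members were higher (GPC6, SDC2, SDC1 and GPC4) and 0 lower, where 7.31% of all features were higher and 7.69% lower by that rule. For the same 4 members every DOX+ library was above every DOX- library, as it was for 9.73% of all features. DESeq2 called 2 members higher, GPC6 and SDC2 (3.32% of the features for which it gave an adjusted p), and limma-voom called 0 (0.4% of all features). DESeq2 gave GPC2 and GPC4 no adjusted p. The fitted level was higher in DOX+ cells for 6 members and lower for 2, with a median log2 fold change of 0.11, against -0.0019 over all features tested, of which 49.3% had a higher fitted level.

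**Figure D3:**
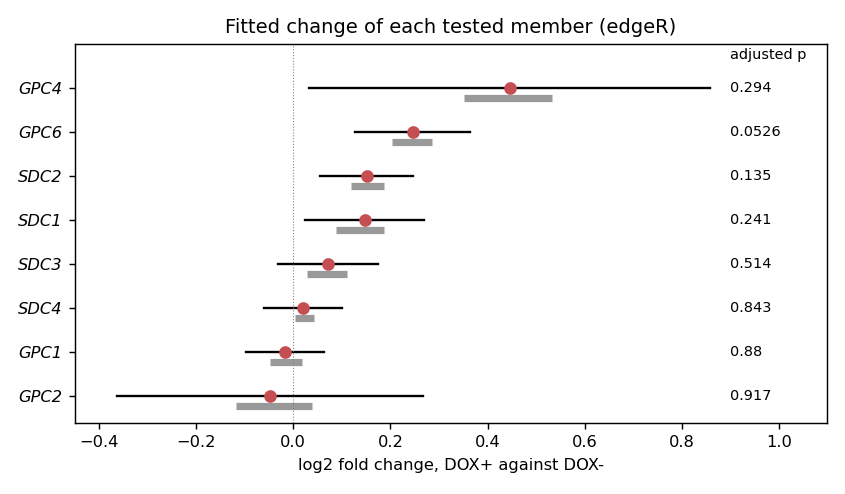
Fitted log2 fold change of each tested member in DOX+ against DOX- libraries (red points), with the 95% confidence interval of edgeR's quasi-likelihood fit (black lines), the lowest and highest value over 15 other settings (grey bars) and the adjusted p at the right. The intervals of GPC4, GPC6, SDC2 and SDC1 lie above 0, but no adjusted p is under 0.05.

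GPC6, the glypican mutated in recessive omodysplasia, a disorder of short limbs, came closest to a call. Its level was 41.9, 38.9 and 40.7 CPM in DOX- replicates 1, 2 and 3 and 47.8, 50.9 and 45.5 CPM in DOX+ replicates 1, 2 and 3. All DOX+ libraries lay above all DOX- libraries, with the highest value in DOX+ replicate 2. The fitted level was 18.6% higher, or 0.25 on the log2 scale (standard error 0.0547, 95% confidence interval 0.13 to 0.36, edgeR adjusted p = 0.0526). An exact two-sided permutation test gave p = 0.1, the smallest that 3 libraries against 3 allow. Over 15 other settings the log2 fold change of GPC6 stayed between 0.20 and 0.28, and the adjusted p ran from 0.00489 to 0.167 and was under 0.05 in 6 of them. Without DOX+ replicate 2 the log2 fold change was 0.20 (edgeR adjusted p = 0.157), and without DOX+ replicate 3 it was 0.28 (edgeR adjusted p = 0.0334).

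Within each library, GPC6 had 6.48, 6.29 and 6.0 counts for every 100 counts of GPC1 in DOX- replicates 1, 2 and 3, and 7.41, 8.21 and 6.92 in DOX+ replicates 1, 2 and 3. This ratio does not depend on the scaling of libraries, and its groups did not overlap. Ratios of the same kind to SDC4 did overlap between groups for SDC2 and SDC1. For every 100 counts of SDC4, SDC2 had 51.5 to 54.3 in DOX- and 53.7 to 60.1 in DOX+ libraries. SDC1 had 26.7 to 30.1 in DOX- and 29.6 to 33.1 in DOX+ libraries. How often such ratios separate over other gene pairs was not measured. In GENCODE 44, 511 of the 7121 exon bases of the canonical GPC6 transcript are also covered by an unnamed gene on the opposite strand (ENSG00000278177), and no strand-aware counting is stated in the sources used here, so reads of the 2 cannot be told apart over that stretch. No other member shared exon bases with another GENCODE gene. Among 9455 named features with a mean log2 CPM over 3, the 3 profiles over the 6 libraries nearest to that of GPC6 included TMEM170A (root mean square difference 0.0322 in log2 CPM after centring each gene) and ARRDC3 (0.0345). TMEM170A was at 7.59, 6.96 and 7.43 CPM in DOX- and 9.14, 9.34 and 8.56 CPM in DOX+ replicates 1, 2 and 3 (edgeR adjusted p = 0.208). ARRDC3, an arrestin-domain protein, was at 19.3, 18.4 and 18.1 CPM in DOX- and 22.6, 23.0 and 20.5 CPM in DOX+ replicates 1, 2 and 3 (edgeR adjusted p = 0.135).

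SDC2, the syndecan typical of mesenchymal cells, was at 103, 107 and 108 CPM in DOX- replicates 1, 2 and 3 and 118, 123 and 112 CPM in the DOX+ replicates, in that order. In CPM the groups did not overlap, though they did in counts per 100 counts of SDC4, and DOX+ replicate 2 was again the highest. The fitted log2 difference was 0.15 (standard error 0.0444, 95% confidence interval 0.06 to 0.25, edgeR adjusted p = 0.135). Without DOX+ replicate 2 it was 0.12 (edgeR adjusted p = 0.336).

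SDC1, best known as the syndecan of epithelia and plasma cells, was at 60.4, 52.5 and 59.0 CPM in DOX- replicates 1, 2 and 3 and at 66.4, 62.2 and 61.7 CPM in the DOX+ replicates. Here DOX+ replicate 1 was the highest and DOX- replicate 2 the lowest, and the gap between the groups was small beside the spread within them. The fitted log2 difference was 0.15 (standard error 0.0565, 95% confidence interval 0.03 to 0.27, edgeR adjusted p = 0.241), and without DOX- replicate 2 it was 0.09 (edgeR adjusted p = 0.479).

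GPC4, a glypican that astrocytes release to promote synapse formation, had the largest fitted difference of the 8 and few reads behind it. Counts were 59, 74 and 71 in DOX- replicates 1, 2 and 3 and 95, 83 and 109 in the DOX+ replicates. No DOX+ library fell within the DOX- range. The log2 fold change of 0.45 had a standard error of 0.191 and a 95% confidence interval from 0.03 to 0.86 (edgeR adjusted p = 0.294), so its size was poorly determined at this depth.

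GPC1 and SDC4, the most abundant of each family, had the narrowest intervals of the 8. GPC1 was at 647, 618 and 679 CPM in DOX- replicates 1, 2 and 3 and 645, 620 and 658 CPM in the DOX+ replicates, with every DOX+ value inside the DOX- range. Its log2 fold change was -0.02 (95% confidence interval -0.10 to 0.06, edgeR adjusted p = 0.88), and the sign turned with library size scaling and without DOX- replicate 3 or DOX+ replicate 2. SDC4, the syndecan of focal adhesions, was at 201, 197 and 208 CPM in DOX- and 201, 205 and 208 CPM in DOX+ replicates 1, 2 and 3, a log2 fold change of 0.02 (95% confidence interval -0.06 to 0.10, edgeR adjusted p = 0.843) that lay between 0.0041 (without DOX- replicate 2) and 0.0431 (without DOX- replicate 3) when 1 library was left out. SDC3, first described in the nervous system, was at 296, 272 and 300 CPM in DOX- and 303, 287 and 321 CPM in DOX+ replicates 1, 2 and 3. The ranges overlapped, and the log2 fold change was 0.07 (95% confidence interval -0.03 to 0.17, edgeR adjusted p = 0.514). It was 0.029 without DOX- replicate 2, 0.03 without DOX+ replicate 3, 0.11 without DOX+ replicate 2 and 0.0461 with the trend on transcript length removed.

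GPC2, a glypican of the developing nervous system, had 154, 141 and 128 counts in DOX- replicates 1, 2 and 3 and 146, 137 and 140 counts in the DOX+ replicates. All DOX+ values lay inside the DOX- range. The log2 fold change of -0.05 had a 95% confidence interval from -0.36 to 0.27 (edgeR adjusted p = 0.917), and its sign turned without DOX- replicate 1.

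**Figure D4:**
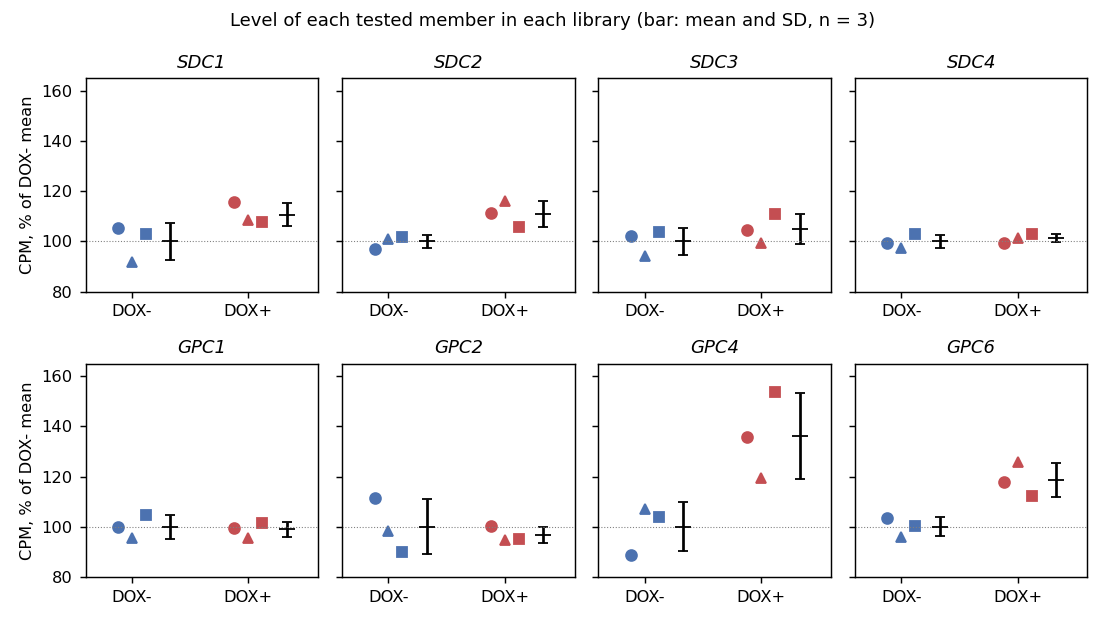
CPM of each tested member in each library, as a percentage of its DOX- mean, with DOX- libraries in blue and DOX+ libraries in red (circle, triangle and square for replicates 1, 2 and 3) and the mean and SD of the 3 libraries as a black bar. The DOX+ points of SDC1, SDC2, GPC4 and GPC6 lie above all DOX- points, and those of GPC1 and SDC4 lie around 100%.

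Of 146 genes in lists around these proteins, 125 had enough reads to be tested and 2 were called higher in DOX+ cells (XYLT1 and BPNT2), with 0 called lower, where 0.4% of all features were called higher and 0.715% lower. At an unadjusted p under 0.05 in edgeR's test, 10 listed genes were higher (8.0% of those tested) and 12 lower (9.6%), near the 7.31% and 7.69% of all features. DESeq2 called 3 higher and 3 lower (3.32% and 3.3% of all features with an adjusted p), and limma-voom 2 higher and 0 lower (0.4% and 0.7% of all features). A higher fitted level was found for 54.4% of the listed genes tested and for 49.3% of all features. XYLT1, which puts the first sugar of the chain on serine-glycine sites of the core protein, was at 127, 127 and 128 CPM in DOX- replicates 1, 2 and 3 and rose to 152, 148 and 153 CPM in the DOX+ replicates. The spread within each group was far smaller than the gap between them, and the fitted log2 difference was 0.25 (standard error 0.0369, edgeR adjusted p = 0.00524). XYLT1 stayed under an adjusted p of 0.05 in all 15 other settings, with 0.0458 as the highest value. BPNT2, the Golgi phosphatase that clears a by-product of sulfation and is listed under its older symbol IMPAD1, was at 160, 156 and 153 CPM in DOX- and rose to 178, 186 and 173 CPM in DOX+ replicates 1, 2 and 3, by 0.20 on the log2 scale (standard error 0.0404, edgeR adjusted p = 0.0376). That call was lost without DOX- replicate 1, 2 or 3, without DOX+ replicate 1 or 2 (edgeR adjusted p from 0.0906 to 0.164) and with the trend on transcript length removed (0.0563).

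Among the 12 genes for the linkage region and for chain polymerisation, all tested, 1 was called higher, 5 were higher and 0 lower at an unadjusted p under 0.05 (7.31% and 7.69% of all features), 9 had a higher and 3 a lower fitted level (49.3% of all features were higher), and the median log2 fold change was 0.06 against -0.0019 over all features. FAM20B, the kinase that phosphorylates the linkage xylose, was next after XYLT1 (log2 fold change 0.13, edgeR adjusted p = 0.252). Of 18 genes that sulfate, epimerise or trim the chain, 9 were tested and 0 called by edgeR, with a median of 0.04. At an unadjusted p under 0.05, 0 of the 9 were higher and 2 lower (22.2%, against 7.69% of all features). HS3ST1, HS3ST2, HS3ST6, NDST4 and HS6ST3 had 0 counts in every library. Within that group the sulfatase SULF1, which removes sulfate groups from chains at the cell surface, was at 199, 205 and 192 CPM in DOX- and 187, 190 and 181 CPM in DOX+ replicates 1, 2 and 3 (log2 fold change -0.10, edgeR adjusted p = 0.277). The sulfotransferase HS3ST3A1 was lower by a fitted 0.20 on the log2 scale, from a mean of 13.4 to one of 11.7 CPM (edgeR adjusted p = 0.305).

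The genes of chondroitin and dermatan sulfate synthesis gave 0 edgeR calls among 14 tested (1 higher and 0 lower at an unadjusted p under 0.05, against 7.31% and 7.69% of all features), with a median log2 fold change of 0.06 and the smallest p for CHSY1, a chondroitin polymerase (0.13, edgeR adjusted p = 0.21), and then DSEL (0.08, edgeR adjusted p = 0.405). The 15 genes for sugar and sulfate donors, all tested, gave 1 call (BPNT2) and a median of 0.06, with 2 higher (13.3%) and 1 lower (6.67%) at an unadjusted p under 0.05. Of the genes that degrade heparan sulfate 9 of 11 were tested, 0 were called by edgeR (0 higher and 1 lower, or 11.1%, at an unadjusted p under 0.05) and the median was -0.01, with SGSH (-0.16, edgeR adjusted p = 0.215) and IDS (0.08, edgeR adjusted p = 0.407) leading by p. Heparanase, HPSE, had 29 counts over the 6 libraries and was not tested.

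GPI anchor genes, on which the glypicans depend, gave 0 edgeR calls among 28 tested and a median of 0.01. At an unadjusted p under 0.05, 1 was higher (3.57%, against 7.31% of all features) and 3 lower (10.7%, against 7.69%), and 16 had a higher and 12 a lower fitted level (57.1% higher, against 49.3% of all features). PIGG, which adds an ethanolamine phosphate to the anchor, was at 39.6, 41.0 and 38.1 CPM in DOX- and 34.4, 33.7 and 36.0 CPM in DOX+ replicates 1, 2 and 3 (log2 fold change -0.19, edgeR adjusted p = 0.12). PIGT, a subunit of the transamidase that attaches the anchor, had a log2 fold change of -0.14 (edgeR adjusted p = 0.17, DESeq2 adjusted p = 0.0395). For cleavage and shedding of the core proteins, 12 of 17 genes were tested and 0 called by edgeR (1 higher and 1 lower at an unadjusted p under 0.05, 8.33% each), with a median of 0.02. FURIN, a convertase that cleaves several glypicans, was at 164, 152 and 168 CPM in DOX- and 173, 181 and 188 CPM in DOX+ replicates 1, 2 and 3 (log2 fold change 0.17, edgeR adjusted p = 0.116), and MMP2 had a log2 fold change of -0.07 (edgeR adjusted p = 0.287). DESeq2, however, gave FURIN an adjusted p of 0.00746.

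The 16 cytoplasmic partners and trafficking genes of syndecans were all tested and gave 0 edgeR calls and a median of -0.03. At an unadjusted p under 0.05, 0 were higher and 3 lower (18.8%, against 7.69% of all features), and 5 had a higher and 11 a lower fitted level (31.2% higher, against 49.3% of all features). EZR, which encodes the actin linker ezrin, and ACTN1, the actinin that binds syndecan-4, led by p (log2 fold changes -0.11 and -0.08, edgeR adjusted p = 0.188 for both), and DESeq2 gave EZR an adjusted p of 0.0492. Other heparan sulfate or part-time proteoglycans gave 0 edgeR calls among 10 tested (0 higher and 1 lower, or 10.0%, at an unadjusted p under 0.05), at a median of -0.02. CSPG4, a transmembrane chondroitin sulfate proteoglycan that also marks pericytes, was at 239, 231 and 259 CPM in DOX- and 214, 204 and 221 CPM in DOX+ replicates 1, 2 and 3 (log2 fold change -0.19, edgeR adjusted p = 0.0734), and it was called lower in 3 of 15 other settings. SPOCK1 had a log2 fold change of 0.20 (edgeR adjusted p = 0.366).

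**Figure D5:**
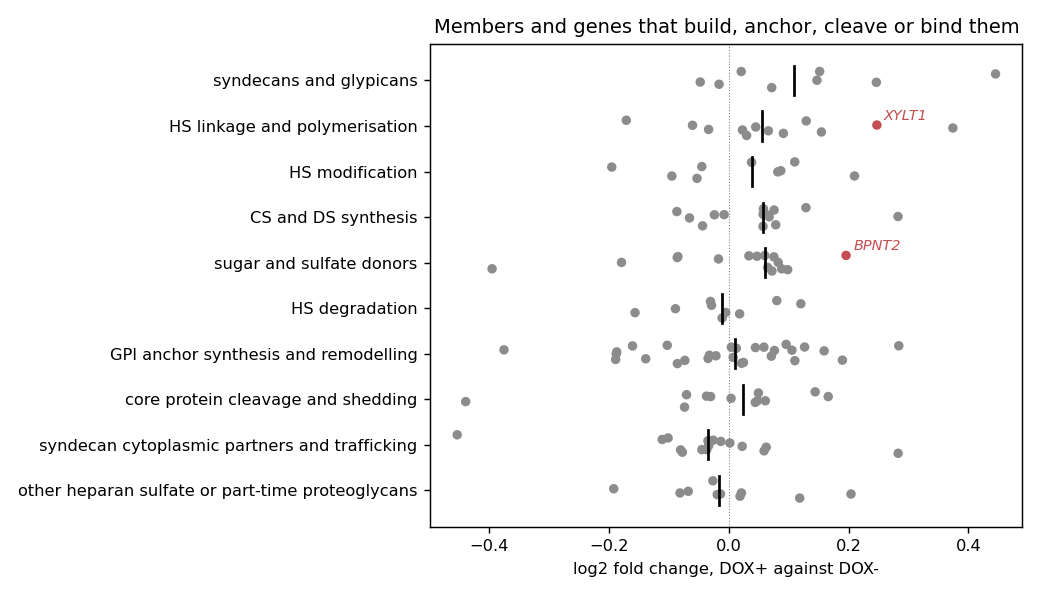
Fitted log2 fold change in DOX+ against DOX- libraries of the tested members (top row) and of the genes of each list, 1 point a gene, with black bars at the medians and in red the genes with an edgeR adjusted p under 0.05. XYLT1 (0.25) and BPNT2 (0.20) are the 2 red points, and the medians of all rows lie between -0.03 and 0.11.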

How the data were processed

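Poly(A)-selected RNA of 6 IMR-90 libraries (3 DOX-, 3 DOX+) was sequenced. According to the methods and the submitters' processing notes, reads were filtered on quality, and HISAT2 and StringTie were then run against GRCh38. Tool versions, the annotation release and the counting step are not given in the sources used here. The authors deposited 1 whole-number count and 1 FPKM value (scaled to transcript length and library size by them) for each feature and library. The deposited FPKM served for levels between genes and for the family shares and ratios set side by side between groups. It entered no test. From the table, 17 lines that lacked a value in a column used here were dropped.

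Counts were analysed with edgeR 4.0.16 in R 4.3.3: filterByExpr (minimum count 10), TMM scaling, glmQLFTest with group as its single term, and p-values adjusted by Benjamini-Hochberg across 13991 features. The standard error was obtained as |log2 fold change| over the root of the F statistic. CPM were computed from the deposited counts with TMM-scaled library sizes. Totals of 34057675 to 36120260 counts limit the precision of genes with few reads, and intervals and floors cover no more than their stated error. Correlations of deviations between DOX- and DOX+ libraries of equal replicate number were -0.024, -0.035 and 0.036. For unlike numbers they ran from -0.033 to 0.058, so the main fit used no pairing. These correlations cover all features and do not exclude pairing. The fit with a replicate block called 135 features higher and 157 lower. No library was a duplicate of another (chi-square per degree of freedom within groups 4.53 to 8.25).

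The members and gene lists were chosen with earlier results of these data known. The named genes are the 10 members, ZNF469, every listed gene past an FDR of 0.05, the 2 genes of smallest p in each list and the 3 profiles nearest to the member of smallest p. Of these, 2 genes are not reported here. Other settings were 2 other filters, 3 other scalings, DESeq2 1.42.0, limma-voom (limma 3.58.1), the replicate block, removal of the lowess trend (span 0.3) on transcript length (known for 12771 features), the criteria of an absolute log2 fold change over 1, CPM per kilobase, and leaving out each library. Coordinates, transcripts and exon overlaps came from GENCODE 44 of GRCh38, which may not be the authors' release, and start sites from RefSeq (GRCh38.p14). The scripts were tested on simulated counts.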

Additional observations from a re-analysis of the deposited data

How the results depend on the processing

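Relative to the 56 features called higher and 100 called lower, no filter on low counts gave 127 and 163, DESeq2 266 and 265, the replicate block 135 and 157, and library size scaling 88 higher and 77 lower, which moved the share of calls that were higher from 35.9% to 53.3%. Adding an absolute log2 fold change over 1 left 2 and 4. Leaving out 1 library gave 20 to 69 higher and 54 to 92 lower. Members called higher went from 0 to 1 (GPC6) without the low-count filter, with the CPM filter and with library size or upper quartile scaling, to 2 with DESeq2 (GPC6 and SDC2), and to between 0 and 1 when a library was left out. The replicate block left that count at 0 (GPC6 adjusted p = 0.0529). Listed genes called higher went from 2 to 1 with the length trend removed, to between 1 and 2 when a library was left out, and to 0 with the fold criterion. Those called lower went from 0 to 1 without the low-count filter (CSPG4), to 3 with DESeq2 (CSPG4, EZR and PIGT) and to 1 with the replicate block (CSPG4). The cause of these differences was not tested. GPC1 changed sign with library size scaling (0.0043), without DOX- replicate 3 (0.0185) and without DOX+ replicate 2 (0.0081), and GPC2 without DOX- replicate 1 (0.0381), with no call in any of them. Leaving out 1 library gave log2 fold changes of -0.0484 to 0.0185 for GPC1 and -0.1178 to 0.0381 for GPC2. Depth limits GPC2, GPC4 and the pair at the floor, GPC3 and GPC5.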
